A study of Homo sapiens with 7 samples.

Results

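Around 10 goblet cell and secretory genes, GATA6 peaks were unevenly spread. In LS174T colorectal carcinoma cells, the windows around PIGR and around AGR2 and AGR3 held 8 and 9 peaks, those around REG4, MUC13, TFF1 with TFF3, and MUC2 held 4, 3, 3 and 2, and those around SPDEF and CLCA1 held none. The windows were 8 fixed stretches of hg19, of 220 to 380 kb, each placed around 1 or 2 of the genes. A peak belonged to a window if its summit, the position of highest coverage, lay inside it. This gave 29 peaks of 7568 in the deposited list, or 0.383% of the list in 0.0724% of the chromosome spans that peaks covered. The windows were set by gene position and not by a measured value. The genes and windows were, however, chosen with earlier results of these data known.

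The study mapped GATA6 binding in LS174T by chromatin immunoprecipitation followed by sequencing (ChIP-seq). Per the labels there were 3 GATA6 libraries, made with an antibody against human GATA6, 1 input library made with no antibody, and 1 library for each of 3 histone marks (H3K4me1, H3K4me3, H3K27ac). All came from this 1 established line, grown in serum and cross-linked with formaldehyde, and the labels name no treatment. A single list of GATA6 peaks was used, with no value per library, so no value has a spread between replicates and no p-value is given. The histone and input libraries were not analysed here.

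GATA6 is a zinc-finger transcription factor of endodermal tissues that binds DNA at the letters GATA in a short favoured context. Goblet cells are the mucus-secreting cells of the intestinal epithelium, and LS174T is known as a mucin-producing colon cancer line. Their products are packed in the secretory pathway and released onto the gut surface, where mucins form the gel and smaller secreted proteins stabilise or remodel it. A ChIP-seq peak marks where fragments bound by the factor gathered. It does not say which gene the site acts on.

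Promoter sequence is shown for 4 of the genes because it is the sequence at the genes that the windows surround, and because these 4 carry a GATA motif. RefSeq promoters (GRCh38.p14, 250 bases before to 50 bases after the transcription start) were matched for 8 of the 10 genes, the exceptions being TFF1 and TFF3. The motifs searched were AGATAA and AGATAG, together with TGATAA and TGATAG, on both strands, and none of these overlaps another in the sequences below. Each sequence reads 5′ to 3′ on the gene's strand, with motif matches in capitals.
AGR2, chr7:16804950-16805249, minus strand: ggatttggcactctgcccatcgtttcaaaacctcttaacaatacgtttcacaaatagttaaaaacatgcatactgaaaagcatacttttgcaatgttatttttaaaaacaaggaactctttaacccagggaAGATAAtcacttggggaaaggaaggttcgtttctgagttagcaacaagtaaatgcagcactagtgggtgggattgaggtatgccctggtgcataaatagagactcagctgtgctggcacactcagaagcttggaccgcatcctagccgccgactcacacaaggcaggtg
REG4, chr1:119811411-119811710, minus strand: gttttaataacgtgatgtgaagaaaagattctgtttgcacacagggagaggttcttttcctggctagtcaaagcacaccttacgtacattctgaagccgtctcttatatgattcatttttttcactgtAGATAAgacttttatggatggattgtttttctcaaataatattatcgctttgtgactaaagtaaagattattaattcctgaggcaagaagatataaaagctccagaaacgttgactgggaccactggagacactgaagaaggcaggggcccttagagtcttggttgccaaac
MUC13, chr3:124934702-124935001, minus strand: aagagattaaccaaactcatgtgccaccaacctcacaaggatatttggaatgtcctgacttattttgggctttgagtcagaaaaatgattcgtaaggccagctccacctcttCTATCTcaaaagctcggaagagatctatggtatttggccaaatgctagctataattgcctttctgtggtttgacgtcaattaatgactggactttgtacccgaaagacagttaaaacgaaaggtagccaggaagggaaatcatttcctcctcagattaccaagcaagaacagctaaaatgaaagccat
CLCA1, chr1:86468677-86468976, plus strand: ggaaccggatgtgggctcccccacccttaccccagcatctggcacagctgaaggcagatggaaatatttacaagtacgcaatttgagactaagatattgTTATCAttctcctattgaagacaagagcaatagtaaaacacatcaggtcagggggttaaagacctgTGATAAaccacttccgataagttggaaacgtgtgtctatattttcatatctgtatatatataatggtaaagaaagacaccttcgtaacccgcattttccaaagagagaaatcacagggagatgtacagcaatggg

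The match in the AGR2 promoter begins 119 bases before the start and that of REG4 122 bases before it, both as AGATAA. MUC13 has AGATAG on the opposite strand, 138 bases before the start. CLCA1 has TGATAA at 151 bases before the start on the opposite strand and again at 85 bases before it on the gene's strand. Among all 35116 RefSeq promoters of this length, 24.97% hold at least 1 such match and 6.08% hold at least 2. The promoters of MUC2, AGR3, SPDEF and PIGR had no match in these 300 bases, which says only that these letters do not occur there. The windows of the 4 genes with a match held 9 peaks (AGR2), 4 (REG4), 3 (MUC13) and 0 (CLCA1). Those of the genes without a match held 2 (MUC2), 0 (SPDEF) and 8 (PIGR), and AGR3 shares the window of AGR2. A promoter of 300 bases and a window of 220 kb or more are unlike stretches, and no relation was tested. These promoter coordinates belong to GRCh38 and those of the peaks to hg19. No conversion between the builds was made, so the positions were not set against each other. For the same reason no peak below is placed in an exon, an intron or a promoter.

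Of the 8 windows, 6 held at least 1 peak. To show what windows of this kind hold in general, chromosomes 1 to 22 and X were cut, between their first and last summit, into consecutive tiles as long as each window. At least 1 peak was found in 46.0% of tiles of 380 kb, 39.9% of 300 kb, 36.3% of 260 kb, 34.4% of 240 kb, 33.4% of 230 kb and 32.4% of 220 kb. Summed over the 8 windows, these shares correspond to 2.90 windows with a peak. The tiles were taken in order, do not leave out the windows' own regions, and include gene-poor stretches and assembly gaps, and windows around other genes were not compared. A higher count than in tiles is therefore not shown to be particular to secretory genes.

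The 29 peaks lay in 2.1 Mb, or 13.8 per Mb, against 2.61 per Mb between the first and last summits of the chromosomes. This was 5.31 times the 5.46 peaks that the tile means gave. Over the 6 windows with a peak, set against tiles with at least 1 peak, the ratio was 2.56. The windows of PIGR and of AGR2 and AGR3 carried 17 of the 29 peaks (58.6%). Without the PIGR window the ratio was 4.30, and without the AGR2 and AGR3 window it was 4.27.

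**Figure D1:**
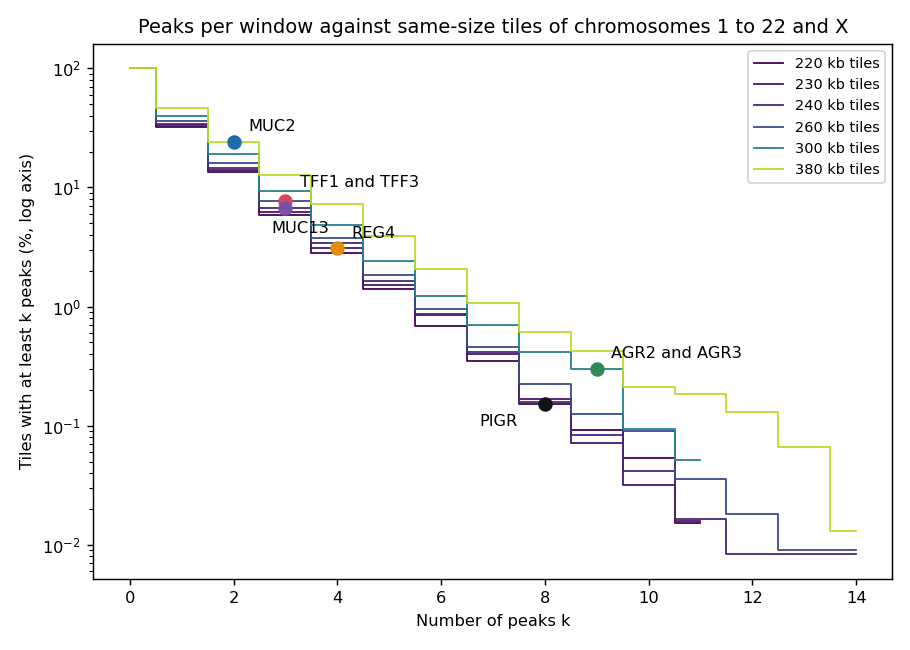
Share of same-size tiles (y axis, %, log axis) that hold at least k GATA6 peaks (x axis), with one line per tile length and one point per window that held a peak. MUC2 sits where 24.1% of tiles reach its count, whereas PIGR (0.152%) and AGR2 with AGR3 (0.300%) sit far down the lines.

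The values of each peak come from the authors. The height is the number of fragments at the summit. The fold is the height over a local background, and the background was obtained here as height divided by fold. Intervals are exact Poisson intervals of the heights at 95% and cover counting error only. The background, often only a few fragments or fewer, and the fold were given no interval.

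PIGR encodes the polymeric immunoglobulin receptor, which carries IgA across the epithelium into the gut lumen. It is an epithelial transport receptor rather than a goblet cell product. Its window, chromosome 1 from 207000000 to 207220000, held 8 peaks, or 36.4 per Mb. At least as many were found in 20 of 13166 tiles of 220 kb (0.152%), and in 0.536% of such tiles on chromosome 1. In the RefSeq gene order, PIGR lies between FCMR and FCAMR, with the interleukin genes IL19, IL20 and IL24 on one side and C1orf116, PFKFB2 and YOD1 on the other.

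The highest peak of all windows lay here, from 207115092 to 207115528. It reached 87 fragments (69.7 to 107.3), 43.6-fold over background, ranking 7 by height and 12 by −log10 p in the whole list. The next by −log10 p, from 207142440 to 207142746, reached 46 fragments (33.7 to 61.4) at 27.45-fold. The interval of the highest peak did not overlap that of this or any other peak in the windows. Only these 2 peaks of the 29 were in the best-scoring 10% of the list by −log10 p.

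A further pair had almost equal heights. The peak from 207146155 to 207146527 reached 36 fragments (25.2 to 49.8) and that from 207124701 to 207125039 35 (24.4 to 48.7), at folds of 17.93 and 15.42. Their intervals overlapped that of the peak of 46, so the order of these 3 by height was not resolved. The peak from 207128829 to 207129086 was 19 fragments high at 9.89-fold. The lowest, from 207117155 to 207117376, was 9 fragments high (4.12 to 17.1) at 6.44-fold, and its summit was 2.0 kb from that of the highest peak. The 2 peaks nearest the window's start had heights of 13 and 12 and an equal fold of 11.46. From the highest peak to the last, 6 summits lay within 31.0 kb, and 4 of the 7 neighbouring pairs of the window were within 10 kb of each other. The heights of the 8 peaks summed to 257 fragments, 41.3% of the 622 summed over all windows. The stretches of 220 kb on either side held 1 peak each.

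AGR2 and AGR3 are neighbouring genes of the protein disulfide isomerase family. AGR2 acts in the endoplasmic reticulum and is needed for mucin production in the mouse intestine. AGR3 is a close relative that is known from airway epithelium. Their shared window, chromosome 7 from 16730000 to 17030000, held 9 peaks, or 30.0 per Mb. Counts this high were found in 29 of 9651 tiles of 300 kb (0.300%) and in 1 of 527 such tiles on chromosome 7 (0.190%). Of the 9 peaks here, 3 were at or above the median −log10 p of the list, and of the 8 in the PIGR window 5 were. The median splits the list into equal parts by definition. The tile shares given are for the full list, and none was taken for these counts. The RefSeq gene order runs BZW2, TSPAN13, AGR2, AGR3, AHR, and AHR encodes a receptor for aromatic ligands.

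Peaks of the AGR2 and AGR3 window were of ordinary size. The best-scoring lay from 16887008 to 16887330, at 23 fragments (14.6 to 34.5) and 23.05-fold. It was followed by the peak from 16861715 to 16862012, the highest of the window at 25 fragments (16.2 to 36.9) and 14.32-fold. The peak from 17029608 to 17029872 reached 21 fragments at 10.52-fold, and that from 16854620 to 16854838 reached 18 at 8.59-fold. Intervals of these heights overlapped throughout. Next by −log10 p were 2 peaks with equal scores (height 14, fold 11.46), from 16920172 to 16920419 and from 17022301 to 17022479. The lowest-scoring, from 16779850 to 16780063, reached 13 fragments at 6.52-fold, while the other two had heights of 10 and 12. In contrast to PIGR, the interval of the highest peak here overlapped those of all the others, which is no test of a difference.

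Within this window the peaks fell into an inner group and a group at its far end. Summits of 3 peaks lay 11.2, 7.6 and 0.2 kb from the window's end, after a gap of 98.5 kb, and 1 lay 50.0 kb from its start. With the window narrowed by 50 kb on each side, 5 peaks were left. The 300 kb before the window held 3 peaks and the 300 kb after it held 4, against a mean of 0.780 in tiles of 300 kb. Both sides thus lay above the tile mean too, so a raised count was not particular to the window.

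**Figure D2:**
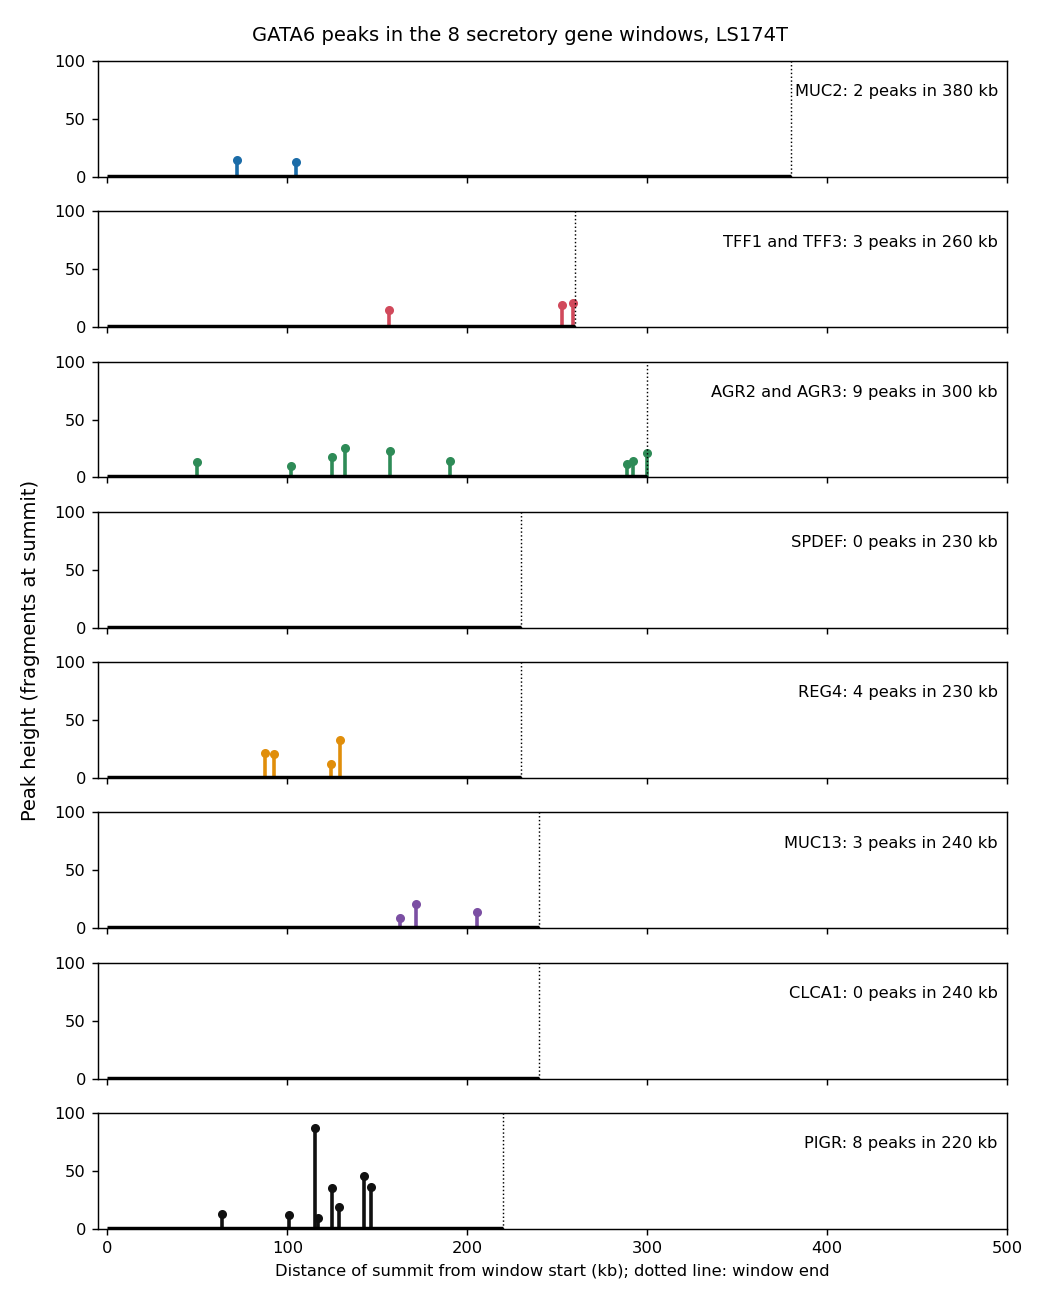
Height of each GATA6 peak (y axis, fragments at the summit) against the distance of its summit from the start of its window (x axis, kb), one panel per window, with the thick line as the window's extent. The 4 highest peaks are all in the PIGR window, SPDEF and CLCA1 have none, and 2 peaks of the TFF1 and TFF3 window and 3 of the AGR2 and AGR3 window lie next to the window's end.

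REG4 encodes a secreted C-type lectin-like protein of intestinal secretory cells. Its window, chromosome 1 from 120230000 to 120460000, held 4 peaks, a count reached by 3.07% of tiles of 230 kb and 3.93% of those on chromosome 1. The peaks came as 2 pairs. In the first, the peak from 120317438 to 120317789 was 22 fragments high (13.8 to 33.3) and that from 120322615 to 120322836 was 21 (13.0 to 32.1), with folds of 7.35 and 7.02.

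The second pair lay 31.5 kb further on. Its peak from 120354112 to 120354286 was 12 fragments high (6.20 to 21.0) and 6.87-fold over background, at the smallest width of the list, 175 bp. The peak from 120359079 to 120359462 topped the window with 33 fragments (22.7 to 46.3) at 11.03-fold. Its interval did not overlap that of the lowest peak, but it overlapped the other two. Summits of each pair were 5.1 kb apart. The 230 kb before the window held 3 peaks and the 230 kb after it none, against a mean of 0.598 in tiles of 230 kb.

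TFF1 and TFF3 encode trefoil peptides, small secreted proteins that protect the mucosa. TFF3 is the form of intestinal goblet cells and TFF1 that of gastric surface cells. Their window, chromosome 21 from 43630000 to 43890000, held 3 peaks, a count reached by 7.69% of tiles of 260 kb and 6.25% of those on chromosome 21. The peak from 43786599 to 43786889 lay well inside the window, at 15 fragments (8.40 to 24.7) and 15.04-fold. The remaining 2, from 43882807 to 43883010 and from 43888812 to 43889032, had heights of 19 (11.4 to 29.7) and 21 (13.0 to 32.1) and folds of 9.52 and 7.02.

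These 2 peaks were 7.1 and 1.1 kb from the window's end, and 96.2 kb separated them from the inner peak. With the window narrowed by 50 kb on each side, 1 peak was left. The RefSeq order is TFF3, TFF2, TFF1, TMPRSS3, UBASH3A, RSPH1, so genes other than the trefoil genes follow on the side after TFF1. Heights of all 3 peaks had overlapping intervals.

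The windows of the mucin genes MUC13 and MUC2 stood at 4.81 and 2.02 times the tile mean, on 3 and 2 peaks. With folds of at least 10 they held 1 and 2, and among peaks at or above the median −log10 p 1 each. A difference between these 2 windows is therefore not shown. MUC13 encodes a transmembrane mucin of the epithelial surface, and its window, chromosome 3 from 124520000 to 124760000, held 3 peaks in the full list. That count was reached by 6.76% of tiles of 240 kb and 6.85% of those on chromosome 3. The 240 kb before the window also held 3 peaks, as many as the window itself, and the 240 kb after it none. The peak from 124691346 to 124691679 was 21 fragments high (13.0 to 32.1) at 7.02-fold. The peak from 124725139 to 124725347 was lower, with 14 fragments (7.65 to 23.5), but had the larger fold, 20.05. The peak from 124682653 to 124682827 was 9 fragments high (4.12 to 17.1) at 8.59-fold. All 3 intervals overlapped, and the order of the first 2 reversed between height and fold because their local backgrounds were 2.99 and 0.698 fragments.

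MUC2 encodes the gel-forming mucin that builds the intestinal mucus layer. Its window, chromosome 11 from 970000 to 1350000, was the longest and held 2 peaks. Of the tiles of 380 kb, 24.1% held at least as many, and 52.4% of those with a peak at all, so this count was not unusual. The peak from 1042060 to 1042312 was 15 fragments high (8.40 to 24.7) at 21.48-fold, and that from 1074620 to 1074831 was 13 (6.92 to 22.2) at 13.03-fold. They were the first 2 peaks of the list on chromosome 11. In the RefSeq order MUC2 sits among further mucin genes, after MUC6 and before MUC5AC and MUC5B, and the summits were 275.3 kb or more from the window's end. The next peak after the window was 362.6 kb past its end.

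SPDEF and CLCA1, 2 genes closely tied to goblet cells, had no peak in their windows. SPDEF encodes an ETS-family transcription factor of goblet cell maturation, and CLCA1 a secreted protein of goblet cell mucus. Empty tiles are common, at 66.6% of tiles of 230 kb and 65.6% of tiles of 240 kb. Since tiles include gene-poor stretches and assembly gaps, this cannot show whether an empty window around a gene is unusual. A list of peaks above a threshold does not show how much signal lay below it.

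The 2 empty windows differed in their surroundings. Past the SPDEF window, chromosome 6 from 34400000 to 34630000, summits lay 16.7 kb before its start and 12.3 kb after its end. The latter peak, from 34642127 to 34642462, was 34 fragments high at 51.25-fold, a larger fold than any peak inside the 8 windows. Widening the window by 50 kb on each side therefore gave it 2 peaks. RefSeq has PACSIN1 before SPDEF and ILRUN after it. Around the CLCA1 window, chromosome 1 from 86830000 to 87070000, the nearest summits were 790.8 kb before its start and 170.4 kb after its end. In 60.4% of the tiles of 240 kb on chromosome 1 there was no peak either. CLCA1 lies between its relatives CLCA2 and CLCA4.

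Singly, most peaks of the windows were of middling strength. Their median height was 18 fragments (interquartile range 13 to 22), against 16 (12 to 23) for the 7533 other peaks on chromosomes 1 to 22 and X. Without PIGR it was 15 over 21 peaks. The median fold was 11.46 against 14.03, and 18 of 29 peaks (62.1%) had a fold of at least 10 against 76.6% of the others. By −log10 p the medians were 11.84 and 12.98, and 13 of 29 peaks reached the median of the list. Widths were alike in median, 253 and 251 bp. Peaks of 1 window share a region and are not independent, so these differences were not tested.

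**Figure D3:**
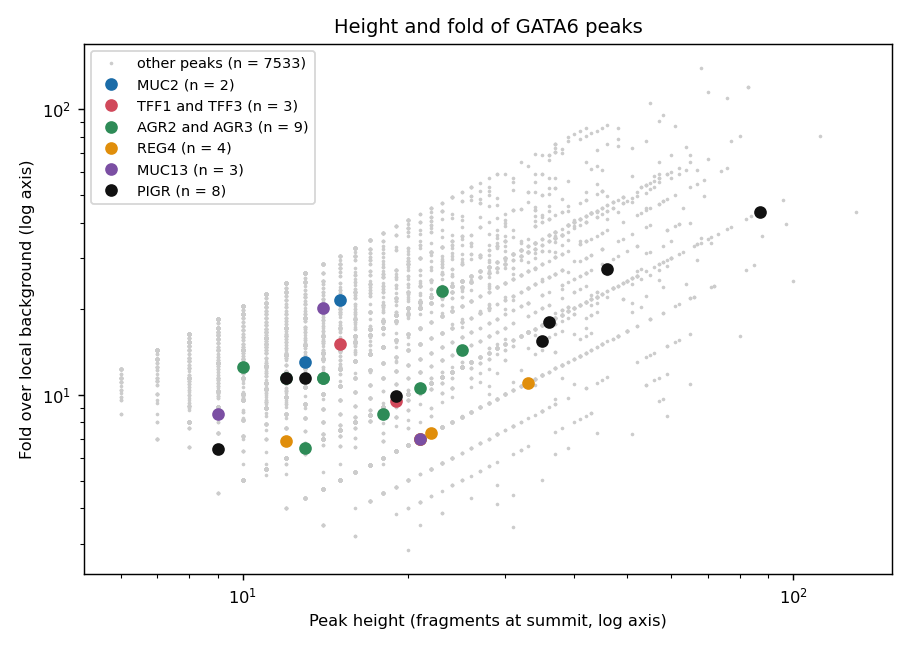
Fold over the local background (y axis, log axis) against height (x axis, fragments, log axis) for each GATA6 peak, with the 29 peaks of the windows in colour and the 7533 others in grey. PIGR reaches 87 fragments, while REG4 lies low for its heights, and 1 peak each of TFF1 and TFF3, REG4 and MUC13 coincide at a height of 21 and a fold of 7.02.

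The local background was higher at most of these peaks than at the median peak of the list. Its median at their peaks was 1.75 fragments, against 1.05 at the other peaks, and 20 of the 29 lay above that value, 3 within 0.01 of it and 6 below. Of the other peaks, 43.4% lay above it. REG4 had the highest, with a median of 2.99 and 3 of 4 peaks at that level, where the rest of chromosome 1 had a median of 1.40. PIGR had a median of 1.80, also above the 1.40 of the rest of chromosome 1. The other 431 peaks past the largest peak-free interval of chromosome 1, a narrower set used for PIGR only, had a median of 1.99. AGR2 and AGR3 had 1.22, against 1.05 elsewhere on chromosome 7. MUC2 was lowest with 0.848. None of the 29 peaks had the lowest background of the list, 0.489 fragments, which 6.23% of the others had. The part of the local background in the counts was not tested. When the list was limited to folds of at least 10, 18 peaks in the same 6 windows were left, at 4.31 times the tile mean, with 7 for AGR2 and AGR3, 6 for PIGR, 2 for MUC2 and 1 each for REG4, MUC13, and TFF1 with TFF3.

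**Figure D4:**
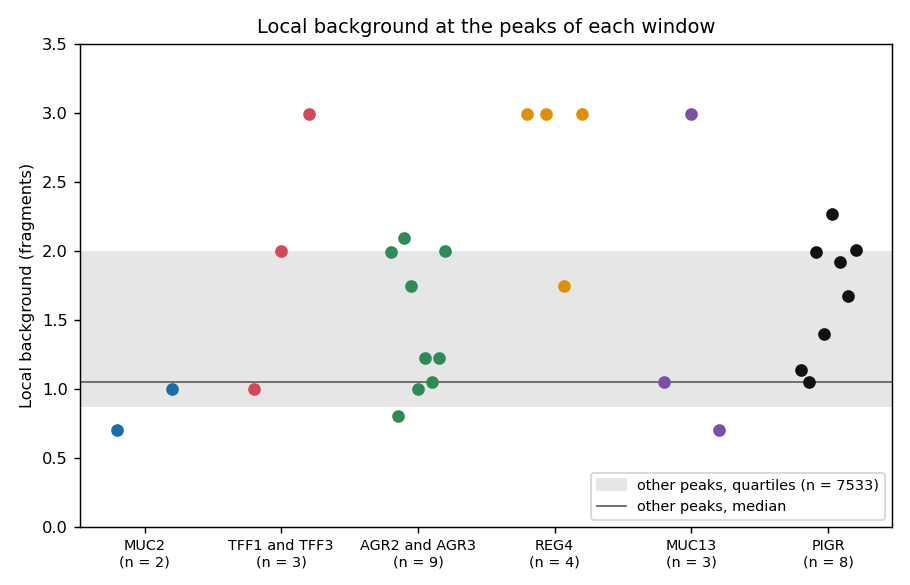
Local background at each peak (y axis, fragments) for the 6 windows with a peak, one point per peak in order of position. The grey band gives the quartiles (0.873 to 1.99) and the line the median (1.05) of the 7533 other peaks. REG4 has 3 points at 2.99, and both MUC2 points lie below the line.

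Close spacing was common in the windows. Of the 29 peaks, 19 (65.5%) had another summit within 10 kb, against 27.1% of the others. The closest summits were 2.0 kb apart, in the PIGR window, so joining summits within 1 kb left all 29. Pairs within 10 kb occurred in the windows of PIGR (4), AGR2 and AGR3 (3), REG4 (2), MUC13 (1) and TFF1 with TFF3 (1), and not in that of MUC2. Whether this spacing is separate from the number of peaks per window was not tested.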

How the data were processed

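The deposited file is 1 list of GATA6 peaks on hg19. CASAVA 1.8 and BWA 0.5.9-r16 are named for the GATA6 libraries in the submitters' processing notes. Which peak caller and control were used, and whether the 3 GATA6 libraries were pooled, is not given in the sources used here. Library depth is unknown. A peak has, per the file headers, a pileup (a coverage signal in whole fragments, called the height), a fold enrichment (a ratio) and a p-value as −log10, all deposited by the authors. The deposited −log10 p was recomputed as a Poisson probability at height divided by fold, with a largest difference of 0.0159.

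Window limits came from the rule that defines the loci. Tiles were consecutive and not drawn at random, and percentages over them are descriptions. No test was made, since the list holds no replicates. Tile counting was tested on simulated data. Python 3.11.15, pandas 2.3.3, numpy 2.4.6 and scipy 1.17.1 were used. The genes and windows were chosen with earlier results of these data known. All 10 genes were named, with every peak of windows holding up to 5 peaks, and otherwise the 5 best and the lowest by −log10 p. Nearest genes and a further list of secretory genes needed hg19 gene positions, which were not used here. RefSeq tables of GRCh38.p14 gave gene order and promoters, and all 10 genes matched the gene table. Alternatives were stricter lists, joined summits, other window limits and other tiles. Leaving out the PIGR or the AGR2 and AGR3 window, widening or narrowing tiles with the windows, and limiting both to those with a peak, were added after seeing the data.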

Additional observations from a re-analysis of the deposited data

How the results depend on the processing

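The count of 29 peaks went to 18 with folds of at least 10 and to 13 among peaks at or above the median −log10 p, which hold fewer peaks by construction. It was 33 with windows widened and 22 with windows narrowed by 50 kb on each side. Windows with a peak numbered 6 with each stricter list, joined summits, any overlap and narrowed windows, and 7, with SPDEF, with widened windows. Shares of tiles with a peak were not recomputed for these settings, and wider windows hold a peak more easily by construction. The ratio to tiles was 1.94 with all 8 windows set against tiles with a peak, which is no like comparison since 2 windows held none. With both limited to those with a peak it was 2.56. With stricter lists, joined summits, tiles of the same chromosome and shifted tiles it ran from 4.31 to 5.52, and with windows and tiles both widened or narrowed it was 4.38 or 6.51. Per window, 37 of 48 recomputed counts were within 1.5 times the main one and 11 were not. Some could not move, since joining changed no count and an empty window stays empty with stricter lists or narrower limits. Among peaks at or above the median −log10 p, the counts of MUC2, AGR2 and AGR3, REG4, MUC13 and PIGR were beyond 1.5 times. Heights of 9 to 87 fragments limit single peaks, and the list shows no signal below its threshold.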
